A study of Mus musculus with 34 samples.

Results

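The genes described are 45 mouse complement and coagulation genes, taken from a list of named factors and matched by symbol to 45 of the 51368 genes of the deposited table. By the cell that chiefly makes them in liver, 39 were listed as hepatocyte-made and 4 as macrophage-made (C1qa, C1qb, C1qc and Cfp), and 2 (Cfd and Clu) were placed in neither class. Genes entered the list by name and not by a measured value.

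Coagulation runs as a chain of serine proteases: the contact factors and the vitamin K-dependent factors activate one another on membranes until thrombin, the product of F2, cuts fibrinogen, while antithrombin, protein C and protein S hold the chain in check and plasmin dissolves the clot. Complement starts from C1q bound to antibody, from mannose-binding lectins bound to sugars, or from spontaneous turnover of C3, and all routes meet at the C3 and C5 convertases and the membrane attack complex. Hepatocytes secrete most of these proteins into plasma, whereas the C1q chains and properdin (Cfp) come mainly from macrophages and other myeloid cells, which in liver are the Kupffer cells.

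The study compared ways of making RNA-seq libraries from the RNA of 1 wild-type C57BL/6J mouse, given as 12 weeks old and with its sex stated differently in 2 label fields. All 33 liver libraries carry the same genotype and no treatment. Of these, 9 were polyA-selected (batch 1), 9 had ribosomal RNA (rRNA) removed by probe pull-down (batch 2) and 9 had rRNA digested by enzyme (batch 2), each group covering slow, medium and fast thermocycler ramps at long, medium and short fragments. A further 3 liver libraries per batch, and 1 heart library in batch 1, had no selection, medium fragments and a slow ramp. Selected libraries used 200 ng of RNA and unselected ones 20 ng, and each selection method had its own kit, so input and kit cannot be told apart from the method. Likewise, polyA selection and batch cannot be told apart where polyA is compared with pull-down or digestion. All libraries are preparations from 1 animal, so p-values measure only the spread between preparations.

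Libraries held 19.873 to 41.396 M counts (M, 1e+06), except for the slow-ramp, long-fragment pull-down library, which held 1.126 M. Genes of rRNA and Lars2, which takes up rRNA reads, held 84.834% to 85.721% of counts in unselected liver, 14.184% to 24.526% after pull-down and at most 1.124% in the other selected libraries. Levels are given as normalised CPM, counts per 1e+06 counts of a library total scaled by TMM over the 33 liver libraries. A gene was called where its adjusted p was under 0.05 in edgeR's quasi-likelihood test. The labels fitted the defining markers: 6 hepatocyte markers summed to between 43956.7 and 72019.2 normalised CPM in liver libraries, and 6 cardiomyocyte markers to at most 1.05.

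Base composition and length differed between the classes and return in several results. Over the longest coding transcript of each gene, members ranged from 39.03% to 59.52% G and C, with a median of 48.01% in hepatocyte-made and 57.44% in macrophage-made members. The median transcript length was 2503 bases in the former and 1145.5 bases in the latter. The central 120 coding bases of 3 members are printed as examples of low and high G and C content. With long fragments in polyA libraries F9 rose, and F12 and C1qa fell. Capitals mark G and C. All 3 genes are protein-coding and the bases are exonic (GENCODE M21, GRCm38). The windows are coding bases 647 to 766 of F9 (chrX:59999464-60030759, plus strand, 41.7% G and C), 836 to 955 of F12 (chr13:55417958-55426793, minus strand, 61.7%) and 308 to 427 of C1qa (chr4:136895917-136898803, minus strand, 55.0%).
F9: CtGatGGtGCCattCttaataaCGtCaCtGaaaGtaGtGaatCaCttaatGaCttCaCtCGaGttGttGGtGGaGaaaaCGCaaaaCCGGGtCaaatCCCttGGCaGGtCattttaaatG
F12: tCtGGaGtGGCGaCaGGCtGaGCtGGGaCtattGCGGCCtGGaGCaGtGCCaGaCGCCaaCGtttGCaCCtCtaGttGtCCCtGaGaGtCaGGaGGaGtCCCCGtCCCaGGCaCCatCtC
C1qa: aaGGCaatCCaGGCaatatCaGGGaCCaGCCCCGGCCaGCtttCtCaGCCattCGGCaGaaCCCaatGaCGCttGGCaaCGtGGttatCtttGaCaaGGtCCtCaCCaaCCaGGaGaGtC

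In unselected liver, which received no selection, the members spanned a 186.0-fold range of level per kilobase of transcript when Cfd is set aside. Over the 6 unselected libraries C3, the central convertase component, was highest at 1095.1 ± 33.8 normalised CPM per kilobase (SD, n = 6). Vitronectin (Vtn, a regulator of the membrane attack complex) followed at 627 ± 25.8, and these ranges did not overlap. Kng1, the kininogen of the contact system, averaged 488 and Plg, plasminogen, 463, with overlapping ranges, as did F2 at 411 and Clu, the chaperone clusterin, at 391. Among hepatocyte-made members the protein S gene Pros1 was lowest, at 14.6.

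The 4 macrophage-made members took ranks 41 to 44 of 45. C1qa at 13.5 ± 3.07, C1qb at 12.7 ± 1.49 and C1qc at 12.2 ± 1.04 normalised CPM per kilobase (SD, n = 6) overlapped one another, and Cfp lay below them at 5.9 ± 1.25. The 3 genes of the C1q chains lie side by side on chromosome 4, and their products assemble into 1 protein. Cfd, the factor D protease known as adipsin for its source in fat, was last. It had 0 to 2 counts in each unselected liver library, where 4 of 4 adipocyte markers were at 0. Its counts were 7 to 24 in polyA, 0 to 16 in pull-down and 2 to 12 in digestion libraries, and it was the member with the least information throughout.

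PolyA selection, against unselected libraries of its own batch, was accompanied by higher levels of most members. Of 45 members, 33 rose and 3 fell, where 25.6% of the 15422 genes tested rose and 24.8% fell. The median log2 fold change was 0.510 over members and 0.038 over all genes tested. Scaling by all counts, rRNA included, shifts the latter to 2.672 and gave 45 higher and 0 lower. By class, 31 of 39 hepatocyte-made members rose and 2 fell, and 1 of 4 macrophage-made members rose and 1 fell. Of the 6 hepatocyte markers 5 rose and 1 fell, and their sum was 64904.7 to 72019.2 normalised CPM against 51294.4 to 52036.7. Their part in the result was not tested. All 4 fibrinolysis members (Plg, Serpinf2, Cpb2, Hrg), both clotting inhibitors (Serpinc1, Serpind1) and all 4 complement regulators (Cfi, C4bp, Vtn, Clu) rose.

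The largest rises under polyA selection were in Cfb, Mbl2, C8g and C2, where those of Cfb and C2 rest on uncertain unselected counts and their summed locus rose by 0.40. Mbl2, mannose-binding lectin C, was at 141, 147 and 148 normalised CPM in the 3 unselected libraries and at 251, 275 and 307 (lowest, median, highest) in the 9 polyA libraries. The groups did not overlap, and the log2 fold change was 0.88 (SE 0.059, adjusted p = 1.59e-13). C8g, the smallest chain of complement C8, went from 113 to 119 up to 191 to 220 (0.82, SE 0.054, adjusted p = 1.21e-13), again without overlap. Clu rose by 0.55 (SE 0.05, adjusted p = 9.72e-11).

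The members that fell in polyA libraries were Masp1, F5 and Cfp, all of which were higher when all counts were used for scaling. Masp1, a protease of the lectin route, was at 165, 172 and 184 unselected and 124 to 138 in polyA libraries, with no overlap, and fell by 0.41 on the log2 scale (SE 0.057, adjusted p = 4.66e-07). F5, the cofactor of factor Xa, fell by 0.40 (SE 0.059, adjusted p = 1.41e-06), from between 676 and 684 to between 482 and 525. Cfp had a log2 fold change of -0.40 (SE 0.156, adjusted p = 0.0323), but its call was lost without either of 2 unselected libraries (replicate 1, adjusted p = 0.167, and replicate 3, adjusted p = 0.0845).

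Of the C1q genes, C1qb alone was called with polyA selection. C1qa was at 12.8, 15.8 and 19.4 unselected and 14.6, 17.2 and 19.4 (lowest, median, highest) in polyA libraries, overlapping widely (0.05, SE 0.132, adjusted p = 0.78). C1qc had -0.01 (adjusted p = 0.977). C1qb had 0.34 (SE 0.14, adjusted p = 0.0454), a call lost without any 1 of the 3 unselected libraries (adjusted p = 0.084, 0.197 and 0.0575). In the same comparison 6 of 8 Kupffer cell and macrophage markers fell and none rose, and their sum was 99.8 to 106 against 147 to 157 normalised CPM. Markers of sinusoidal endothelium (4 of 5 fell, 76.3 to 88.5 against 180 to 188) and of stellate cells and fibroblasts (5 of 6 fell, 39.8 to 43.0 against 112 to 120) were lower too. Their part in the result was not tested.

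**Figure D1:**
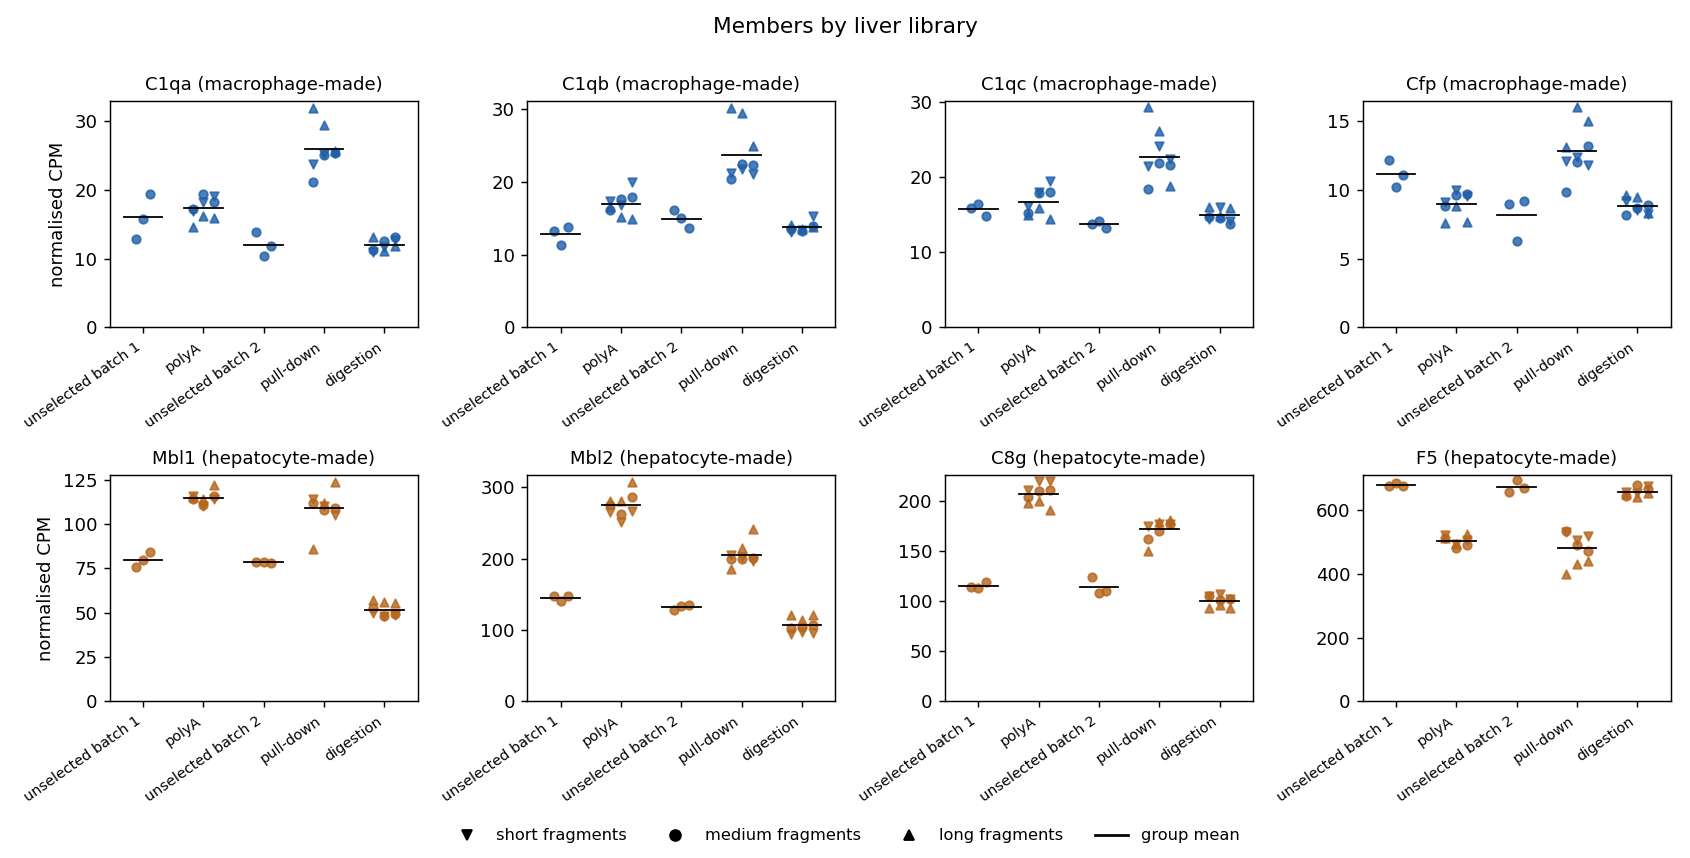
Normalised CPM of single members (vertical axes, starting at 0) in each of the 33 liver libraries, by method and batch; markers give the fragment length and lines the group means. Pull-down libraries lie highest for C1qa (21.1 to 31.9 against 10.9 to 13.2 after digestion), and digestion libraries lie lowest for Mbl2 (94.2 to 121).

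Pull-down, against the unselected libraries of batch 2, also came with higher levels of most members: 32 rose and 5 fell, where 17.5% of genes tested rose and 15.3% fell. The median was 0.331 over members and 0.058 over all genes. Hepatocyte-made members numbered 27 higher and 5 lower of 39, and 4 of 6 hepatocyte markers rose and 0 fell. Scaling by totals without rRNA and Lars2, which shifts the median of all genes to -0.121, gave 20 higher and 6 lower members, and scaling by all counts, which shifts it to 2.307, gave 45 higher and 0 lower.

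All 4 macrophage-made members rose after pull-down, with a median of 0.568. C1qa was at 10.4, 11.9 and 13.8 in the unselected libraries and 21.1, 25.4 and 31.9 (lowest, median, highest) in the 9 pull-down libraries. The groups did not overlap, and the log2 fold change was 0.99 (SE 0.139, adjusted p = 1.08e-06). C1qc rose by 0.58 (SE 0.13, adjusted p = 0.000758), from 13.2 to 14.2 up to 18.4 to 29.4. C1qb rose by 0.56 (SE 0.135, adjusted p = 0.00151) and Cfp by 0.55 (SE 0.167, adjusted p = 0.0108). The Cfp call was lost without unselected replicate 2 (adjusted p = 0.129). Kupffer cell and macrophage markers moved the same way in these libraries. Of the 8, 6 rose and 0 fell, and their sum was 210 to 288 after pull-down against 142 to 154 unselected. All 5 markers of sinusoidal endothelium rose as well (211 to 255 against 166 to 176 in sum). Of the 6 stellate cell and fibroblast markers 2 rose and 1 fell, and their sum was 137 to 165 against 120 to 129. Their part in the result was not tested.

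Among hepatocyte-made members the largest rises after pull-down were in Cfb (2.13), C2 (0.88, SE 0.055) and Mbl2 (0.60, SE 0.06, adjusted p = 1.59e-09). The unselected counts of Cfb and C2 are uncertain, and their summed locus rose by 0.45. Those that fell were F5 by 0.46 (SE 0.059, adjusted p = 2.55e-07), Masp1 by 0.42 (SE 0.058, adjusted p = 7.58e-07), C3 by 0.28 (SE 0.062, adjusted p = 0.000663) and Plg by 0.20 (SE 0.051, adjusted p = 0.00326), besides Hrg. C3 was at 3839.2, 4524.3 and 4960.0 normalised CPM (lowest, median, highest) after pull-down and averaged 5484.5 unselected. Clu rose by 0.22 (SE 0.049, adjusted p = 0.000801). By scaling with all counts, F5, Masp1, C3 and Plg were higher instead, as all 45 members were.

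Fewest members were called after digestion. Against batch 2 unselected libraries 3 members rose and 4 fell, where 7.08% of genes rose and 7.64% fell, and the median was -0.080 over members and 0.037 over all genes. Without the pull-down library of low depth, which enters the shared estimate of spread, 6 rose and 9 fell (8.84% and 8.83% of genes), and DESeq2 called 3 higher and 12 lower (5.36% and 10.2% of genes). The balance depended on the scaling: relative log expression gave 2 higher and 9 lower (median of all genes -0.009), totals without rRNA and Lars2 gave 9 higher and 2 lower (0.125), and totals of all counts gave 45 higher and 0 lower (2.846).

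The members lower after digestion were both mannose-binding lectins, F10 and C8g. Mbl1 was at 78.3, 78.4 and 78.6 unselected and 48.1, 49.7 and 57.1 (lowest, median, highest) in digestion libraries, with no overlap, and fell by 0.62 (SE 0.067, adjusted p = 3.7e-08). Mbl2 fell by 0.36 (SE 0.058, adjusted p = 4.17e-05), from 128 to 135 down to 94.2 to 121. F10, factor X, had -0.22 (SE 0.065, adjusted p = 0.0165) and C8g -0.20 (SE 0.053, adjusted p = 0.00866). Both calls were lost without unselected replicate 1 (adjusted p = 0.0966 and 0.147) and the F10 call also without replicate 3 (adjusted p = 0.0525). All 4 of these signs turn positive when all counts are used for scaling. These 4 members are hepatocyte-made, and the sum of the 6 hepatocyte markers was 43956.7 to 47370.1 after digestion against 51044.4 to 51602.3 unselected, with no overlap, although 1 of them was called higher and 0 lower. The sums were also lower for sinusoidal endothelium (158 to 162 against 166 to 176, 1 of 5 called lower) and for stellate cells and fibroblasts (113 to 116 against 120 to 129, 1 of 6 called lower). Their part in the result was not tested.

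No macrophage-made member was called after digestion: the values were -0.07 for C1qa, -0.18 for C1qb, 0.03 for C1qc and 0.01 for Cfp, with adjusted p from 0.435 to 0.978, although 5 of 8 Kupffer cell and macrophage markers fell (110 to 123 against 142 to 154 in sum). Clu had 0.16 (SE 0.049, adjusted p = 0.023), a call lost without unselected replicate 2 (adjusted p = 0.181) or 3 (adjusted p = 0.0611). Cfd, with at most 2 counts in an unselected library, was called against neither batch of unselected libraries by any method (adjusted p = 0.577 for polyA, 0.871 for pull-down and 0.833 for digestion).

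**Figure D2:**
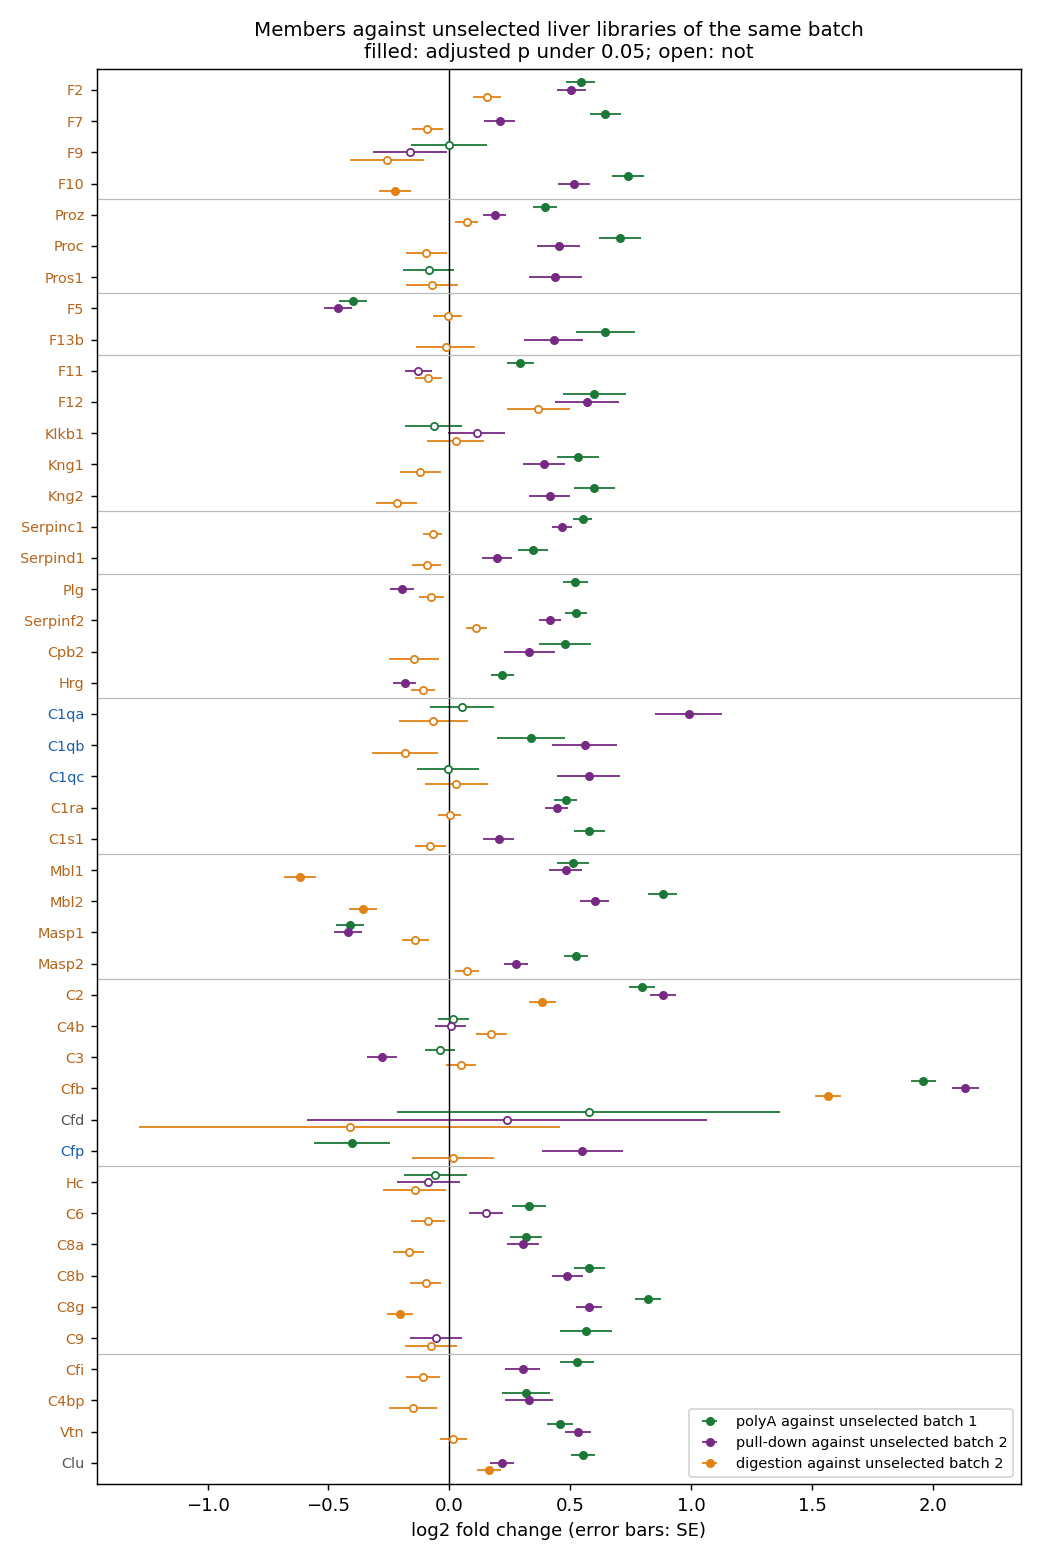
Log2 fold change with its standard error (horizontal axis) of the members against unselected liver of the same batch, 1 row per gene and 1 colour per method; filled points have an adjusted p under 0.05. Most polyA and pull-down points lie right of 0 (33 and 32 members called higher), and most digestion points lie near 0 and open (7 members called in this fit, 15 without the low-depth pull-down library).

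Cfb and C2 rose in all 3 comparisons with unselected libraries, and both share their locus with another gene model. Cfb, factor B of the alternative convertase, lies at chr17:34856374-34862518 and C2, its counterpart in the classical convertase, at chr17:34862604-34898265, both on the minus strand (GRCm38). The protein-coding model Gm20547 overlaps both on the same strand (chr17:34856412-34882042). Cfb was at 189, 199 and 207 normalised CPM in unselected batch 1 and at 744 to 817 in polyA libraries (1.96, SE 0.053, adjusted p = 3.46e-23). It was at 161, 184 and 184 in unselected batch 2, against 736 to 825 after pull-down (2.13, SE 0.054, adjusted p = 2.31e-23) and 507 to 548 after digestion (1.57, SE 0.053, adjusted p = 2.39e-20). None of these groups overlapped. C2 rose by 0.80, 0.88 and 0.39 in the same order (adjusted p = 2.02e-13, 5.1e-14 and 4.2e-06).

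The counts of Gm20547 went the other way. It held 1904 to 1993 counts in each unselected liver library, on average 61.0% (batch 1) and 63.6% (batch 2) of the counts of the 3 genes, and 0 to 201 counts in selected libraries. Summed over the 3 genes, the locus had a log2 fold change of 0.40 with polyA selection (SE 0.042, adjusted p = 2.07e-09), 0.45 with pull-down (SE 0.042, adjusted p = 6.19e-10) and -0.11 with digestion (SE 0.041, adjusted p = 0.065), a sum chosen after the values were seen. Counts of Cfb and C2 in unselected libraries are therefore uncertain. For other close pairs, C4a held 2.76% to 5.01% of the counts it shares with C4b in liver libraries, C1ra at least 99.6% with C1rb, C1s1 at least 99.9% with C1s2, Kng1 87.6% to 89.0% with Kng2, and Mbl1 28.5% to 37.9% with Mbl2.

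**Figure D3:**
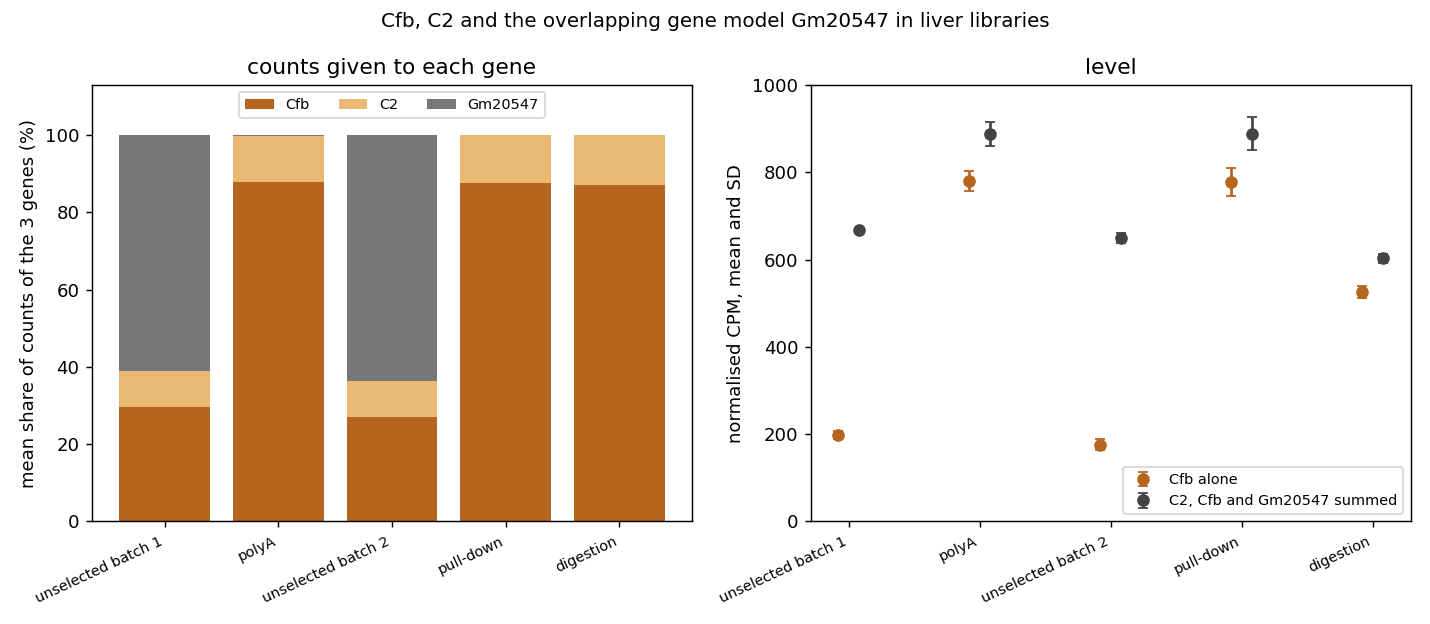
Left, mean share (%) of the counts of Cfb, C2 and Gm20547 given to each gene by liver group; right, normalised CPM (mean and SD) of Cfb alone and of the 3 genes summed. Gm20547 takes 61.0% and 63.6% in the unselected groups and almost nothing in selected ones, so the gap in Cfb is larger than the gap in the sum.

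The 2 rRNA methods, both from batch 2, differed in 39 members: 6 were higher and 33 lower after digestion than after pull-down, where 34.7% of genes were higher and 36.0% lower. The median was -0.442 over members and -0.011 over all genes. Scaling by totals without rRNA and Lars2 gave 12 higher and 23 lower (median of all genes 0.254), and by all counts 23 and 6 (0.546). All 4 macrophage-made members were lower after digestion (median -0.646), as were all 8 Kupffer cell and macrophage markers, all 5 of sinusoidal endothelium and all 6 of hepatocytes. Of stellate cells and fibroblasts 4 of 6 were lower and 1 higher (113 to 116 against 137 to 165 in sum).

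Mbl1 fell most between pull-down and digestion. It was at 85.8, 110 and 124 (lowest, median, highest) after pull-down and 48.1, 49.7 and 57.1 after digestion, and fell by 1.10 (SE 0.038, adjusted p = 2.6e-21). C1qa fell by 1.06 (SE 0.061, adjusted p = 5.89e-16), from 21.1 to 31.9 down to 10.9 to 13.2, with no overlap. Mbl2 fell by 0.96 (SE 0.034, adjusted p = 5.28e-21) and C8g by 0.78 (SE 0.031, adjusted p = 7.99e-20). These 4 transcripts are short, at 1563, 1040, 1089 and 1150 bases. C1qb fell by 0.74 (SE 0.061) and Cfd by 0.65 (SE 0.268, adjusted p = 0.0314), the latter on at most 16 counts per library. C1qc had -0.55 and Cfp -0.54 (adjusted p = 7.92e-10 and 3.93e-08), but with all counts as the scale these were 0.01 and 0.03. Clu had -0.05 (adjusted p = 0.104), and 0.50 and 0.21 under the 2 other scales by totals.

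The members highest after digestion relative to pull-down were F5 (0.45, SE 0.037, adjusted p = 2.07e-12), C3 (0.32, SE 0.038, adjusted p = 7.59e-09), Masp1 (0.28, SE 0.034, adjusted p = 1.87e-08) and C4b, the mouse C4 gene (0.17, SE 0.039, adjusted p = 0.000339). F5 was at 640 to 678 normalised CPM after digestion and 400 to 533 after pull-down, with no overlap. The transcripts of F5, Masp1 and C3 have 7430, 5345 and 5136 bases. Not every long transcript went this way: Serpinc1, at 4970 bases, was at 922 to 979 after digestion and 1234.5 to 1484.8 after pull-down. Across the 45 members the fold change between digestion and pull-down went up with log2 transcript length (Pearson r = 0.67, Spearman rho = 0.58). The 39 hepatocyte-made members alone had 0.64 and 0.49, and 13393 coding genes had 0.38 and 0.44. These are descriptions across genes measured in the same libraries, and genes are not independent replicates.

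PolyA libraries, made in batch 1, were higher than digestion libraries of batch 2 in 36 members and lower in 2, where 38.4% of genes were higher and 42.2% lower; both scales by totals gave 33 and 9 (median of all genes -0.277 and -0.282). The largest differences were in Mbl2 (1.38, SE 0.034, adjusted p = 3.15e-25), Mbl1 (1.15, SE 0.038, adjusted p = 2.16e-22), C8g (1.05, SE 0.031, adjusted p = 2.03e-23) and Cfd (1.01, SE 0.237, adjusted p = 0.000311, on 2 to 24 counts per library). The lower members were F5 with a log2 change of -0.38 and Masp1 with -0.29 (adjusted p = 5.01e-11 and 4.8e-09). Hc, at 5445 bases longer than Masp1, was not called (0.04, adjusted p = 0.689). Across the 45 members this difference had r = -0.63 and rho = -0.47 with length, and over 13393 coding genes -0.45 and -0.63. The 39 hepatocyte-made members alone had r = -0.80 and rho = -0.63. C1qa (0.53), C1qb (0.30) and Clu (0.49) were higher in polyA libraries. C1qc (0.16, adjusted p = 0.0108) was higher too, and Cfp (0.04, adjusted p = 0.613) was not called, but both were -0.09 and -0.21 under the scales by totals. Of the cell markers, 5 of 6 of hepatocytes were higher in polyA libraries and 1 lower (64904.7 to 72019.2 against 43956.7 to 47370.1 in sum). Of the Kupffer cell and macrophage markers 2 of 8 were higher and 4 lower (99.8 to 106 against 110 to 123), of sinusoidal endothelium 1 of 5 higher and 4 lower (76.3 to 88.5 against 158 to 162), and of stellate cells and fibroblasts 0 of 6 higher and 5 lower (39.8 to 43.0 against 113 to 116). Their part in the result was not tested.

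Against pull-down, polyA libraries were higher in 26 members and lower in 6, where 36.4% of genes were higher and 36.2% lower, and scaling by all counts gave 39 and 3 (median of all genes 0.319). Here the classes lay on opposite sides: 25 of 39 hepatocyte-made members were higher and 2 lower, and 4 of 4 macrophage-made members were lower, with a median of -0.47. The hepatocyte-made genes with the largest differences were Plg (0.80, SE 0.032, adjusted p = 6.34e-20), C9 of the membrane attack complex (0.61, SE 0.064, adjusted p = 9.38e-10), F11 of the contact system (0.48, SE 0.03, adjusted p = 6.54e-15) and Hrg (0.46, SE 0.029, adjusted p = 7.84e-15). Plg was at 1674.3, 1910.4 and 1976.0 (lowest, median, highest) in polyA libraries and averaged 1069.7 after pull-down. The lower genes included C1qa (-0.53, SE 0.059, adjusted p = 2.34e-09), Cfp (-0.50), C1qb (-0.44), C1qc (-0.39) and Pros1 (-0.44, SE 0.058, adjusted p = 7.57e-08). Clu was higher by 0.43 (SE 0.03, adjusted p = 5.4e-14) and Cfd was not called (0.36, adjusted p = 0.176). All 8 Kupffer cell and macrophage markers, all 5 of sinusoidal endothelium and 5 of 6 of stellate cells and fibroblasts were lower in polyA libraries as well, and of hepatocyte markers 4 of 6 were higher and 1 lower.

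Set against the hepatocyte-made members, the 4 macrophage-made ones summed to 3.36 to 5.5 counts per 1000 hepatocyte-made counts in the 9 pull-down libraries. That range lay above those of polyA (2.25 to 2.71), digestion (2.49 to 2.84), unselected batch 1 (2.74 to 3.02) and unselected batch 2 (2.46 to 2.75). This ratio needs no scaling between libraries. The unselected groups of the 2 batches differed in no member (0.0% of genes called). At an unadjusted p under 0.05 there were 5 members and 848 genes, and DESeq2 called 0 members and 18 genes. Among the macrophage-made genes Cfp was at 10.2 to 12.2 in batch 1 and 6.25 to 9.22 in batch 2, without overlap but not called (-0.45, SE 0.204, adjusted p = 0.883). C1qa was at 12.8 to 19.4 and 10.4 to 13.8, with overlap (-0.41, SE 0.172, adjusted p = 0.856).

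Fragment length gave the most calls in polyA libraries. Long against short fragments (3 libraries each, ramp as covariate) gave 12 higher and 20 lower members, where 27.4% of genes were higher and 27.7% lower. F9, factor IX, was highest: at slow, medium and fast ramps it was at 78.9, 68.2 and 70.6 normalised CPM with short fragments, 86.2, 77.5 and 80.6 with medium and 130, 122 and 135 with long. Every long library lay above every short and medium one, and the log2 fold change was 0.82 (SE 0.04, adjusted p = 8.38e-08). Pros1 rose by 0.40 (SE 0.043, adjusted p = 1.46e-05) and F13b, the carrier subunit of factor XIII, by 0.36 (SE 0.044, adjusted p = 3.7e-05).

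The members that fell most with long fragments in polyA libraries were F12, C4b and Vtn. F12, the contact factor XII, was at 309, 354 and 343 with short and 262, 294 and 255 with long fragments, without overlap, and had a log2 fold change of -0.32 (SE 0.035, adjusted p = 1.66e-05). C4b fell by 0.31 (SE 0.021, adjusted p = 6.41e-07) and Vtn by 0.30 (SE 0.019, adjusted p = 4.37e-07). All 4 macrophage-made members fell: C1qa by 0.24 (SE 0.045, adjusted p = 0.000943), C1qb by 0.24 (SE 0.067, adjusted p = 0.0111), C1qc by 0.26 (SE 0.06, adjusted p = 0.00344) and Cfp by 0.26 (SE 0.059, adjusted p = 0.00311). The C1qb call was lost without polyA replicate 3 (adjusted p = 0.0698) or 9 (adjusted p = 0.0755). Clu fell by 0.22 (SE 0.018, adjusted p = 2.53e-06).

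Across the 45 members, this difference fell as the G and C content of the transcript rose (r = -0.89, rho = -0.91), and across 13100 coding genes r was -0.59 and rho -0.82. The windows of F9 and F12 printed above, with 50 and 74 of 120 bases G or C, come from opposite ends of that range. In digestion libraries the members' difference had r = 0.02 and rho = 0.04 with G and C content, against -0.08 and -0.19 across 13321 coding genes. In pull-down libraries the members had r = 0.12 and rho = 0.14, where 12949 coding genes had -0.41 and -0.60. Without the library of low depth the members had -0.45 and -0.44.

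**Figure D4:**
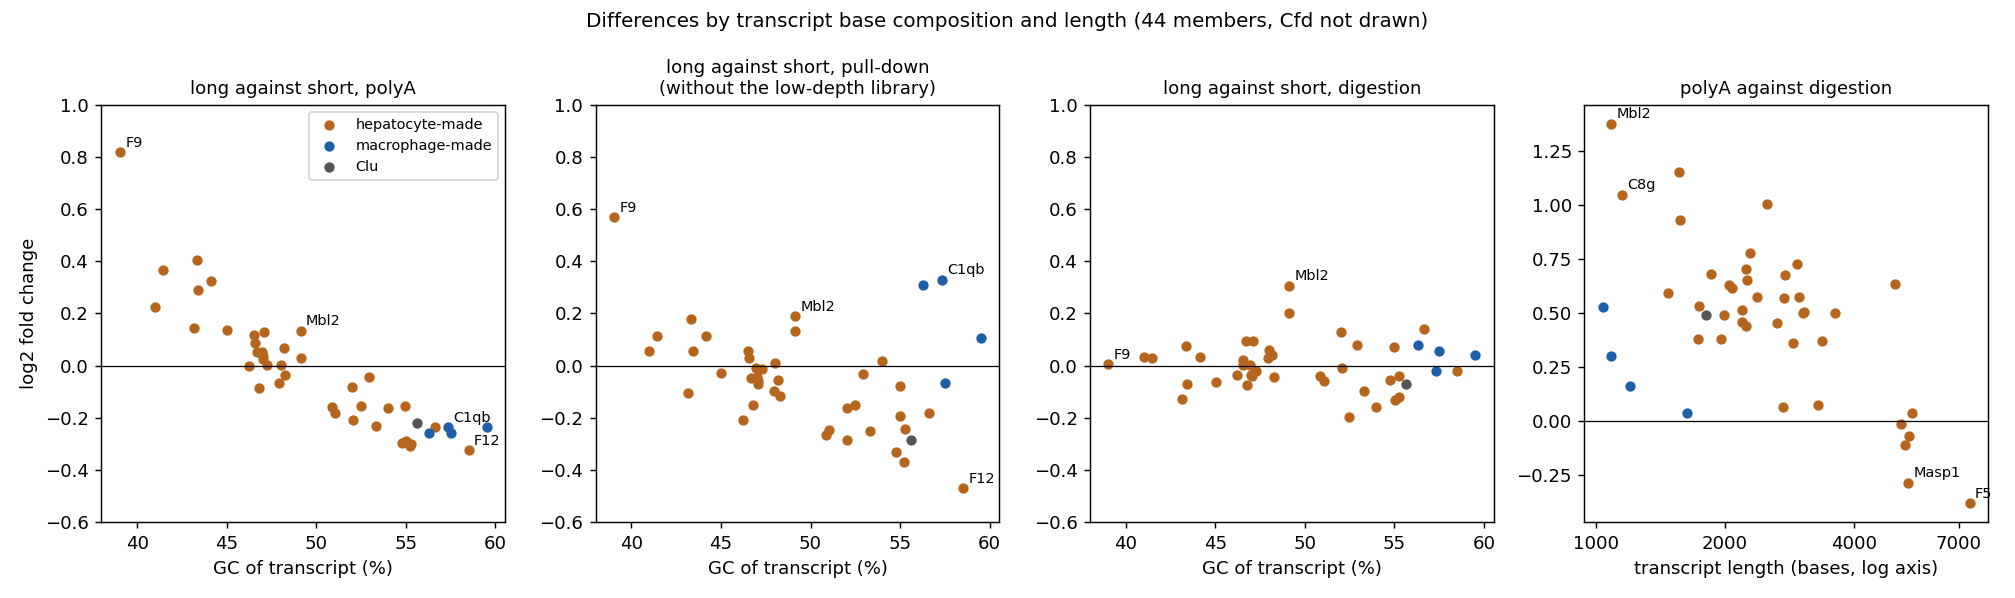
Log2 fold change of 44 members (Cfd not drawn) against the G and C content (%) or length of the transcript, 1 point per gene, coloured by the cell that makes it. Long minus short in polyA libraries falls with G and C content (r = -0.89 over 45 members), and no such slope is seen in digestion libraries (r = 0.02).

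In digestion libraries 7 members rose and 12 fell with long fragments, where 8.8% of genes rose and 9.15% fell. Tested as a contrast within all 27 selected libraries, 2 rose and 1 fell (4.33% and 1.72% of genes), and the calls of Proc, C8g, Serpinf2 and Clu given below were lost (adjusted p = 0.21, 0.0843, 0.123 and 0.657). Mbl2 rose by 0.31 (SE 0.026, adjusted p = 7.19e-07), from 94.2, 97.8 and 95.4 with short to 121, 114 and 121 with long fragments. Mbl1 rose by 0.20 (SE 0.026, adjusted p = 4.83e-05) and Proc, protein C, by 0.14 (SE 0.021, adjusted p = 0.000168). C2 had -0.20 (SE 0.031, adjusted p = 0.000342), C8g -0.16 (SE 0.025, adjusted p = 0.000319) and Serpinf2, the plasmin inhibitor, -0.13 (SE 0.019, adjusted p = 0.000177). F9 did not pass the test, at 83.8 to 89.0 with short and 85.8 to 88.9 with long fragments (0.01, SE 0.022, adjusted p = 0.926). No macrophage-made member was called (C1qa 0.04, C1qb -0.02, C1qc 0.06, Cfp 0.08), and Clu had -0.07 (SE 0.016, adjusted p = 0.00517).

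In pull-down libraries 1 member rose and 0 fell with all 9 libraries, where 4.42% of genes rose and 1.66% fell. Without the library of low depth, which is 1 of the 3 long-fragment libraries, 5 members rose and 15 fell, where 19.2% of genes rose and 18.2% fell. C1qb was the member that rose in both. It was at 21.2, 21.8 and 21.1 with short and 30.2, 29.4 and 24.9 with long fragments, with no overlap (0.35, SE 0.084, adjusted p = 0.0483; without the low library 0.33, SE 0.07, adjusted p = 0.00441). Its call was lost on leaving out any of the other 8 pull-down libraries (adjusted p = 0.0854 to 0.366). F9 was at 62.9 in the low library, against 109 and 121 in the other long-fragment libraries and 75.9 to 82.7 with short fragments. Without the low library it rose by 0.57 (SE 0.06, adjusted p = 0.000104), Cfp by 0.31 (SE 0.098, adjusted p = 0.031), and F12 fell by 0.47 (SE 0.077, adjusted p = 0.00116). Clu fell by 0.29 (SE 0.045, adjusted p = 0.000907) in that fit. The other macrophage-made members, C1qa (0.105) and C1qc (-0.068), were not called there, nor was Cfd (-0.438).

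The fragment effect itself differed between methods for several members. Digestion and polyA differed in 14 members (32.6% of genes in either direction), 12 with a higher and 2 with a lower value in digestion; scaling by relative log expression gave 6 and 4. Without the pull-down library of low depth it was 28 members, 20 higher and 8 lower (36.9% of genes). F9 had the largest such difference (-0.78, SE 0.12, adjusted p = 6.24e-05). Pull-down and polyA differed in 3 members (3.0% of genes), which were C1qa (0.41, SE 0.103, adjusted p = 0.0326), C1qb (0.62, SE 0.101, adjusted p = 0.00109) and Cfp (0.63, SE 0.117, adjusted p = 0.00419). Relative log expression gave 3 higher and 2 lower there. Without the low-depth library it was 14 members, 4 higher and 10 lower (8.45% of genes), and DESeq2 with all libraries kept called 4 higher and 13 lower (10.1% of genes). C1qa, C1qb and Cfp were called without it as well (adjusted p = 0.0297, 0.000984 and 0.0027). In the same test with all libraries 4 of 8 Kupffer cell and macrophage markers were higher and 0 lower. Of sinusoidal endothelium 2 of 5 markers were higher and 0 lower, and of stellate cells and fibroblasts 1 of 6 higher and 0 lower. Pull-down and digestion differed in 5 members (14.4% of genes), in 22 without the low-depth library (3 higher and 19 lower, 25.9% of genes) and in 15 with DESeq2 (3 higher and 12 lower, 16.1% of genes).

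No member passed the test between ramp rates. Fast against slow ramps gave 0 of 45 members at an adjusted or an unadjusted p under 0.05 with edgeR, and 0 with DESeq2, where 0.0328% of 15230 genes were called. Without the low-depth pull-down library 0 members were called with edgeR, but 2 members and 930 of 15242 genes had an unadjusted p under 0.05. The values for C1qa, C1qb, C1qc, Cfp and Clu lay between 0.05 and 0.12, and that of Cfd was -0.01.

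Heart was compared with the 3 liver libraries of the same batch, all unselected. With 1 heart library there is no test, and in bulk RNA fewer cells of a type and less RNA per cell cannot be told apart. A gene was counted as different when at least 2-fold apart and outside the range of the liver libraries, and intervals are exact Poisson 95% intervals of the heart count, which cover counting error only. Levels here are on a scale of their own (TMM over these 4 libraries), on which the cardiomyocyte markers summed to 7033.6 and the hepatocyte markers to 44.9 normalised CPM in heart. Of the 39 hepatocyte-made members 39 were lower in heart, where 23.0% of 12828 genes were lower and 26.3% higher. Their median liver to heart ratio was 211, with the 2 genes at 0 heart counts taken at a floor of 3 counts. Of the 4 macrophage-made members 1 was lower and 0 higher.

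The hepatocyte-made members with the largest differences had at most 12 counts in heart. F10 and Mbl1 had 0 heart counts, against 779 to 833 liver counts for F10. With 3 counts as the floor, the liver to heart ratios were 409 for F10 and 192 for Mbl1. By the upper limit of the Poisson interval, 3.69 counts, these ratios were at least 333 and 156. Proz, protein Z, had 2 heart counts against 1096, 1020 and 1082 in liver, a ratio of 817 (interval 226 to 6744.5). F13b had 1 count against 393 to 435 (639, interval 115 to 25253.6). F2 had 12 against 3826 to 4090 (509, interval 292 to 986), and Cfi, factor I, 6 against 1440 to 1578 (390, interval 179 to 1063.8).

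Alb, the albumin gene, had 950 counts in heart, and the 6 hepatocyte markers had heart to liver ratios of 0.00299 to 0.0042. In a comparison chosen after the values were seen, 28 of the 39 hepatocyte-made members had a ratio of at most 2 times the highest of these, and 11 were above it (F7, F9, Pros1, C1ra, C1s1, Masp1, C2, C4b, C3, Cfb and Vtn). F7 and F9, with ratios of 0.00996 and 0.00921, rest on 3 and 6 heart counts. The counting intervals of both span that limit, so they are not set apart from it. The ratios of C2 and Cfb rest on uncertain liver counts, and with Gm20547 added their locus had 36 heart counts against 3016 to 3225 in liver, a ratio of 0.00746, below that limit of 0.0084. Whether hepatocyte RNA in the heart sample has a part in the low counts was not tested. Of the members above it, Pros1 stood closest to liver, at 78 heart counts against 245, 226 and 231 (4.6-fold lower, interval 3.68 to 5.82). The C1s protease gene C1s1 had 117 counts (14.5-fold lower) and the C1r protease gene C1ra 99 (14.8-fold lower). C3 had 899 counts against 25954 to 28026 (46.3-fold lower, interval 43.4 to 49.5).

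None of the 3 C1q genes was at least 2-fold apart between the organs. C1qa had 107 heart counts and 62, 71 and 93 liver counts, a liver to heart ratio of 1.08 (interval 0.893 to 1.32) and a log2 difference of -0.11, which is 0.41 by library totals. C1qb had 125 against 64, 51 and 66, a ratio of 0.738 (interval 0.619 to 0.886) and a difference of 0.44, or 0.96 by library totals. C1qc had 104 against 77, 74 and 71, a ratio of 1.09 (interval 0.901 to 1.34) and a difference of -0.13, or 0.40 by library totals. The sign for C1qa and C1qc thus depends on the scaling. Cfp had 21 counts against 46 to 59 and was 3.83-fold lower in heart (interval 2.51 to 6.19). Markers particular to Kupffer cells were lower in heart, Clec4f with 3 counts against 178, 169 and 192. Another marker, Csf1r, had 213 counts in heart and a liver to heart ratio of 1.3 (interval 1.13 to 1.49). Csf1r is only 1 of the 8 Kupffer cell and macrophage markers and does not stand for the others. The 8 summed to 10.9 normalised CPM in heart, with 1 of them at 0 counts.

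Per kilobase of transcript, Clu was the highest member in heart at 28.0 normalised CPM, followed by C3 at 5.98, C1qb at 3.92, C1qa at 3.52 and C1qc at 2.95. Clu had 1481 heart counts against 3326 to 3605 in liver and was 3.56-fold lower (interval 3.39 to 3.75). Cfd had 1 count in heart and 1, 0 and 2 in liver, and was the only member below the count filter. Macrophage-made members summed to 200.0 counts per 1000 hepatocyte-made counts in heart, against 2.74 to 3.02 in the liver libraries of its batch.

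**Figure D5:**
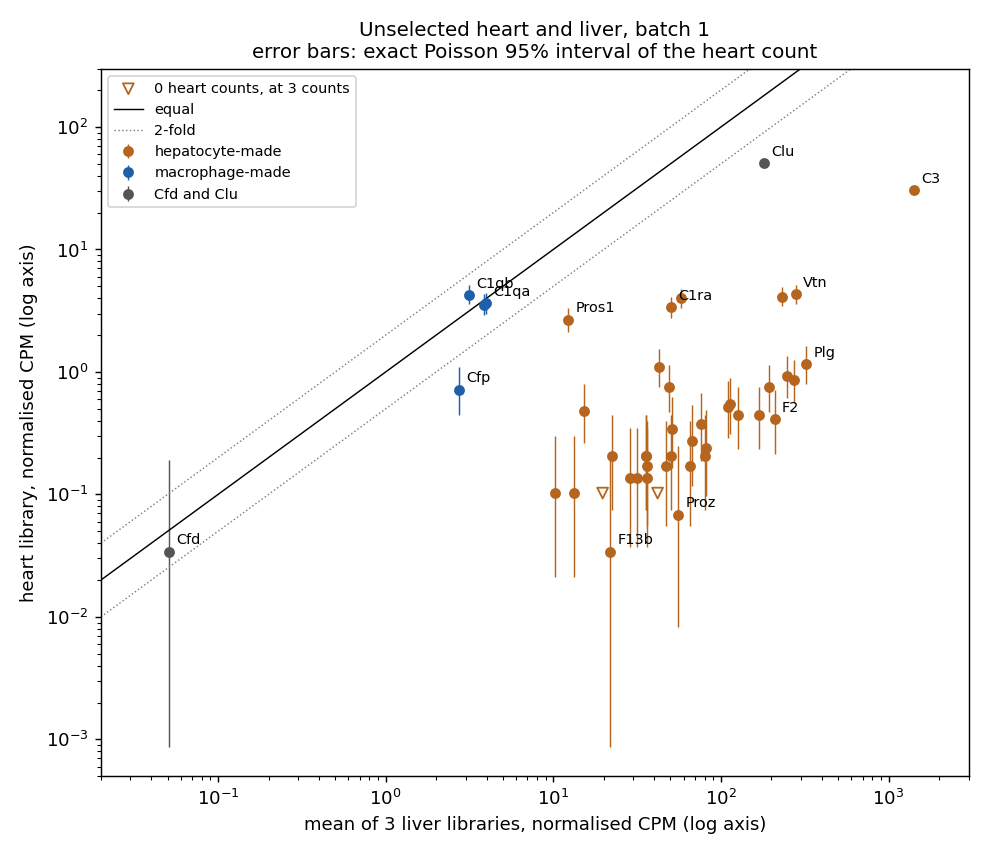
Level in the heart library against the mean of the 3 liver libraries of batch 1 (normalised CPM, both axes logarithmic), 1 point per member, with exact Poisson 95% intervals of the heart count and lines for equality and 2-fold. The C1q genes lie within 2-fold of equality, and all 39 hepatocyte-made members lie below equality, by a median of 211-fold.

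Promoters were also read for HNF1, a hepatocyte factor. The letters GTTAAT, part of its known site, were searched on either strand in the RefSeq promoter windows (GRCm38.p6, 250 bases before to 50 after the start), where 35 members had 37 windows. They occurred in 10 of the 37 windows, and in 2332 of 32851 windows of all genes (7.1%). By gene they occurred in 10 of the 35 members, 9 of 31 hepatocyte-made and 1 of 3 macrophage-made. A match is a description and not a binding site, and the windows of all genes were not matched to those of members in base composition. Whether the letters have a part in the heart levels was not tested. Windows of Hc, the gene of complement C5 (chr2:35061363-35061662, minus strand), and C1qc (chr4:136892865-136893164, minus strand) are shown as 1 hepatocyte-made gene with the letters and 1 macrophage-made gene without them. Capitals mark the match, here read as ATTAAC.
Hc: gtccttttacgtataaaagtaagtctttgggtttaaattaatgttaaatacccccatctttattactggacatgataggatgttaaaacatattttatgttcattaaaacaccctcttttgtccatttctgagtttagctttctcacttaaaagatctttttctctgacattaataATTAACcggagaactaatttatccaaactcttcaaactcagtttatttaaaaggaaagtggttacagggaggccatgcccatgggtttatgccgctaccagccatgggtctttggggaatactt
C1qc: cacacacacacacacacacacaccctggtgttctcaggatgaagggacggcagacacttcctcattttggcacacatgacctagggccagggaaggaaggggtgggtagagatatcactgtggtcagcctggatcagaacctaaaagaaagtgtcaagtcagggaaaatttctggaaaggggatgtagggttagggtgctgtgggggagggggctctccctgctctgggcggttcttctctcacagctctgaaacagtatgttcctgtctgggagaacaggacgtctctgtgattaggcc

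Other genes of the pathways came from a separate list. Against unselected liver, 6 of 25 other complement genes tested rose and 8 fell with polyA selection, and 10 of 23 other coagulation genes rose and 6 fell, where 25.6% of all genes rose and 24.8% fell. With pull-down 6 complement genes rose and 0 fell and 9 coagulation genes rose and 0 fell, where 17.5% and 15.3% of all genes did. With digestion the counts were 2 and 5 for complement and 1 and 2 for coagulation (7.08% and 7.64% of all genes). The fibrinogen chains Fga, Fgb and Fgg rose by 0.52, 0.51 and 0.51 with polyA selection and by 0.48, 0.46 and 0.46 with pull-down. F8, made by endothelium, fell by 2.59 with polyA selection (adjusted p = 8.04e-15). Against liver, 13 of the 41 other genes that passed the filter were higher in heart and 23 lower, where 26.3% of all genes were higher and 23.0% lower. The higher ones included Vwf, the platelet-binding carrier of factor VIII (357 heart counts against 28 to 38), the thrombomodulin gene Thbd (228 against 7 to 14) and F13a1, the catalytic subunit of factor XIII (225 against 1, 2 and 1), whose carrier F13b had 1 heart count.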

How the data were processed

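The authors deposited 1 table of gene-level expected counts for 34 libraries. Per the submitters' processing notes it involved Salmon 1.9.0, UMI-tools 1.1.1, R 4.4.0 and GRCm38, with roles not stated, so whether the expected counts are free of PCR duplicates is not given in the sources used here. Salmon shares reads among overlapping or near-identical genes by a model, so such genes are uncertain. Of the values 10.5% were not whole, and all were rounded. Symbols and positions came from GENCODE M21, which matched 50896 of 51368 identifiers and all 45 members.

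Counts were tested with edgeR 4.0.16 (limma 3.58.1, R 4.3.3) by the quasi-likelihood F-test, with TMM, filterByExpr and Benjamini-Hochberg adjustment over all genes tested, called at an adjusted p under 0.05. Method comparisons used 33 liver libraries with ramp and fragment length as covariates, fragment comparisons the 9 libraries of a method with ramp, and ramp and interaction tests the 27 selected libraries. A standard error is the log2 fold change divided by the square root of F. The fits were tested on simulated data. DESeq2 1.42.0, other scalings and filters, and leaving out each library were alternatives. Counts per kilobase used the longest coding transcript. Python 3.11.15, pandas 2.3.3, scipy 1.17.1 and matplotlib 3.10.9 were used.

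Genes named were the macrophage-made members, Cfd and Clu, the up to 4 (methods) or 3 (fragments) members called with the largest changes in each direction, the 5 highest in heart and the 5 hepatocyte-made members most different from it, members failing a filter, and paralogs. The macrophage-made members, Cfd and Clu were to be named in every comparison, but not all are given in each. The members, lists and rules were chosen with earlier results of these data known.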

Additional observations from a re-analysis of the deposited data

Results flagged for a closer look

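The level of each member was compared among the libraries of each selected method (135 groups of 9), and 20 groups held 1 library set apart from the others by a gap that chance gives in about 1 of 20 groups. In 18 of the 20 it was the slow-ramp, long-fragment pull-down library with 1.126 M counts. Its values, in normalised CPM with the median of the 9 pull-down libraries after each, were 42.5 for Pros1 (median 63.3), 66.2 for F13b (128), 40.0 for F11 (47.0), 176 for Klkb1 (341), 964 for Kng1 (1476.4) and 125 for Kng2 (202) among clotting and contact genes. Serpind1 was at 283 (379) and Cpb2 at 114 (191). Among complement genes it gave 192 for C1s1 (259), 85.8 for Mbl1 (110), 105 for Masp1 (134), 382 for Hc (791), 120 for C6 (169), 489 for C8a (650), 208 for C8b (269), 162 for C9 (262), 305 for Cfi (413) and 203 for C4bp (336). All 18 values were below the median of their group. The other 2 were high values: C1qb at 15.3 in the fast-ramp, short-fragment digestion library (median 13.5) and Mbl1 at 122 in the fast-ramp, long-fragment polyA library (median 114).

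The effect of long against short fragments differed between methods in 22 tests (edgeR's quasi-likelihood test, adjusted p under 0.05). In digestion relative to polyA the log2 differences were 0.3 for C1qa, 0.35 for C1qc, 0.36 for Cfp, 0.14 for C1ra, 0.18 for Clu, 0.29 for Vtn, 0.24 for F10, 0.27 for F2, 0.25 for F7, 0.41 for Proc, 0.23 for Plg and 0.19 for Serpinf2, with -0.78 for F9 and -0.3 for Pros1. In pull-down relative to digestion they were 0.38 for C1qb, 0.47 for F9, -0.2 for C1ra, -0.24 for F5 and -0.24 for Plg. In pull-down relative to polyA they were 0.41 for C1qa, 0.62 for C1qb and 0.63 for Cfp.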

How the results depend on the processing

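Of 1353 values of named genes under the alternatives, 1190 kept direction and side of the threshold, 124 lost and 14 gained a call, and 25 reversed; unless stated otherwise the cause was not tested. Percentages give the share of all genes tested. Asking for a 2-fold change left 1 member each for polyA (13.8%), pull-down (5.22%) and digestion (2.35%) against unselected, 2 for digestion against pull-down (11.3%), 5 for polyA against digestion (21.8%), 0 for polyA against pull-down (16%) and 0 for long against short in polyA (4.03%), pull-down (1.73%) and digestion (1.34%). Digestion against unselected gave 15 with DESeq2 (15.6%), 45 with library totals (98.2%), 11 with relative log expression (13.9%), 11 with totals without rRNA and Lars2 (19.2%) and 15 without the low-depth library (17.7%). Without that library the interactions gave 28 for digestion and polyA (36.9%), 22 for pull-down and digestion (25.9%) and 14 for pull-down and polyA (8.45%). With DESeq2 pull-down and digestion gave 15 (16.1%) and pull-down and polyA 17 (10.1%), and the latter gave 5 with relative log expression (6.19%). Long against short in digestion gave 3 as a contrast within 27 libraries (6.05%). In pull-down it gave 16 that way (33.3%), 8 with DESeq2 (9.28%), 10 with library totals (17.3%) and 0 with no filter (4.14%). Leaving out 1 library gave 0 to 20 there (20 without replicate 1, of low depth), 15 to 21 in digestion and 30 to 35 in polyA. Leaving out 1 unselected library gave 34 to 35 for polyA, 35 to 36 for pull-down and 5 to 6 for digestion against unselected, 0 between batches and 41 for heart. Of the selected libraries, only the low-depth one was left out of these comparisons, which gave 36, 39 and 15 against unselected.

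Library totals include rRNA counts, and under them signs reversed for digestion against pull-down in C1qc (0.009), Cfp (0.025) and Clu (0.50). For digestion against unselected they reversed in C1qa (2.75), C1qb (2.64), C8g (2.62), Cfd (2.30), F10 (2.59), Mbl1 (2.20) and Mbl2 (2.46). For polyA against unselected they reversed in C1qc (2.65), Cfp (2.25), F5 (2.25) and Masp1 (2.24), for pull-down in C3 (1.98), F5 (1.80), Masp1 (1.84) and Plg (2.06), and for polyA against digestion in C1qc (-0.086) and Cfp (-0.207). With totals without rRNA and Lars2, Clu reversed in digestion against pull-down (0.21), and C1qc (-0.087) and Cfp (-0.208) in polyA against digestion. The summed locus of Cfb and C2 gave -0.11 for digestion against unselected.

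In the library titles, replicate numbers were given only for the unselected liver libraries of the 2 batches. The numbers used above for selected libraries stand for their ramp and fragment settings. Same-numbered unselected libraries had correlations of 0.02, -0.36 and -0.40 in their deviations (6480 genes), so the numbers do not pair them. With the replicate block 0 members and 82 genes were called between batches in the 6 unselected libraries, and 0 and 39 without it. Depth limits Cfd in all libraries, the macrophage-made members in unselected ones, and heart values, which rest on 1 library.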

Other observations

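Between the 2 unselected liver batches no member was called, yet the members' small differences went with base composition: across the 45 members the log2 fold change of batch 2 over batch 1 had r = -0.53 and rho = -0.60 with G and C content, against -0.11 and -0.31 across 13393 coding genes. This pattern was noticed after the values were seen, and all genes share the same 6 libraries.

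Hepatocyte-made members held 3.4% of the counts other than rRNA and Lars2 in polyA libraries, 2.9% after pull-down, 3.18% after digestion, 3.06% and 3.0% in unselected batches 1 and 2, and 0.0413% in heart. Macrophage-made members held 0.00848%, 0.0119%, 0.0083%, 0.00869%, 0.00772% and 0.00824% in the same order.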
